A study of Homo sapiens with 35 samples.

Results

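The 44 nuclear receptor genes described here were taken from a fixed list of receptor symbols, and all 44 were found among the 19974 protein-coding genes of chromosomes 1 to 22 and X. Their chromatin was read from a list of ATAC-seq peaks. ATAC-seq marks open chromatin by the places where a transposase can insert sequencing adapters. Peaks were assigned to a receptor gene when their summit lay within 1 kb of a gene end, inside the gene, or outside it within 50 kb. Those farther out than 1 kb also had to lie over 1 kb from every coding gene end. This gave 1325 distinct peaks of the 308145 in the list on those chromosomes. The cells were hematopoietic progenitors grown from the embryonic stem cell line H1, a long-established human line.

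The series asks what ectopic MYC, switched on by doxycycline, does to such progenitors. Its labels describe 35 libraries at days 10, 12, 14, 16, 18 and 20, while the design text counts 44. Of these, 12 libraries came from doxee17 cells with doxycycline, 11 from untreated doxee17 cells (both batch 1) and 12 from untreated H1 cells (batch 2), in 18 groups of 1 to 3 libraries. The doxee17 name appears in library titles, whose cell line field reads H1 for every group, and whether doxee17 is 1 clone is not given in the sources used here. The untreated H1 libraries therefore cannot be told apart from their batch. The peak list is a single set for the whole series with no value per library. Neither doxycycline nor day can be compared in it, there are no replicates, and no p-value is given. Values for the receptors are set beside the same values over all coding genes.

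Nuclear receptors are transcription factors that bind DNA through a zinc finger domain and, for many members, switch their activity when a small lipophilic ligand such as a steroid, retinoid, thyroid hormone, oxysterol or fatty acid fills a pocket in the protein. Ligand exchanges corepressors for coactivators on the receptor, and many non-steroid receptors bind DNA as partners of a retinoid X receptor. In blood, retinoic acid receptor alpha is known for its role in granulocyte maturation and in acute promyelocytic leukaemia, the glucocorticoid receptor for its action on lymphoid and erythroid cells, and the NR4A receptors as immediate early genes and, in mice, as suppressors of myeloid leukaemia.

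Fold enrichment in what follows is the authors' own value at a peak summit, a linear ratio of the read pileup to the background of the peak caller. Intervals in brackets are exact 95% Poisson intervals of that pileup. They cover counting error only and say nothing of the spread between cultures. The labelled cell type was checked against markers. Over 10 blood progenitor genes the median highest peak was 110-fold and a median 89.4% of the gene lay under peaks, against 3.41-fold and 1.92% over 5 liver genes. The lowest blood genes were MYB at 37.9-fold and CD34 at 44.9-fold. Read only within 1 kb of a gene end, the blood genes had a median of 34.9-fold and the liver genes 0. All coding genes had 43.5-fold there, which 4 of the 10 blood genes exceeded. Of the liver genes, AHSG at 53.9-fold and SERPINA1 at 52.4-fold were the highest, and ALB, the defining one, reached 2.72-fold with no peak at its ends or start. The medians of the highest peak were 20.7-fold over 5 neural genes and 33.4-fold over 5 endothelial genes, and 67.4-fold over all coding genes. Among the endothelial genes ESAM reached 113-fold and PECAM1 82.9-fold, while CDH5, KDR and TEK reached at most 33.4-fold. Among the neural genes MAP2 reached 69.8-fold and the others at most 25.5-fold.

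Most receptor genes carried a peak at an end, with a median height under that of all coding genes. A summit lay within 1 kb of an end in 40 of 44 receptor genes (90.9%, against 83.0% of all coding genes). The median of the highest fold at an end was 15.4 over the receptors (quartiles 3.46 and 74.2) and 43.5 over all coding genes (3.64 and 112). At an end, 14 of 44 exceeded that all-gene median (31.8%, background 50.0%), 9 exceeded 100-fold (20.5%, background 29.2%) and 12 stayed under 5-fold or had no summit (27.3%, background 27.4%). Across the whole gene the picture differed: the highest peak overlapping the gene or its 1 kb margins had a median of 67.2-fold in receptors and 67.4-fold in all coding genes, 16 of 44 exceeded 100-fold (36.4%, background 35.1%) and 28 of 44 exceeded 50-fold (63.6%, background 58.3%).

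Body peaks were read apart from those at the ends. A body peak, with its summit over 1 kb inside both ends, exceeded 50-fold in 18 of 44 receptor genes (40.9%, background 15.1%). In NR1D1, NR3C1 and NR3C2 that peak is the one covering the RefSeq start. With such peaks left out, 15 of the 40 receptors with a start in the RefSeq promoter table had one (37.5%, background 12.1%). Receptor genes are long, with a median of 58.4 kb against 24.2 kb, so genes were also read by length. With start-covering peaks counted again, 5 of 14 receptors under 30 kb (35.7%) had a body peak above 50-fold, against 8.03% of all coding genes there. From 30 to 100 kb the share was 5 of 13 (38.5%, background 20.3%), and over 100 kb it was 8 of 17 (47.1%, background 30.3%). Peaks over the start account for NR1D1 in the shortest class and for NR3C1 and NR3C2 in the longest. Among the same 40 receptors, the highest peak of the gene covered that start in 14 (35.0%, background 61.4%). In the 3 length classes the share was 25.0%, 41.7% and 37.5%, against 60.8%, 67.9% and 52.9%. The 664 body peaks of the receptors had a median of 3.08-fold against 3.21-fold over all coding genes, and 3.46% of them exceeded 50-fold against 2.46%.

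**Figure D1:**
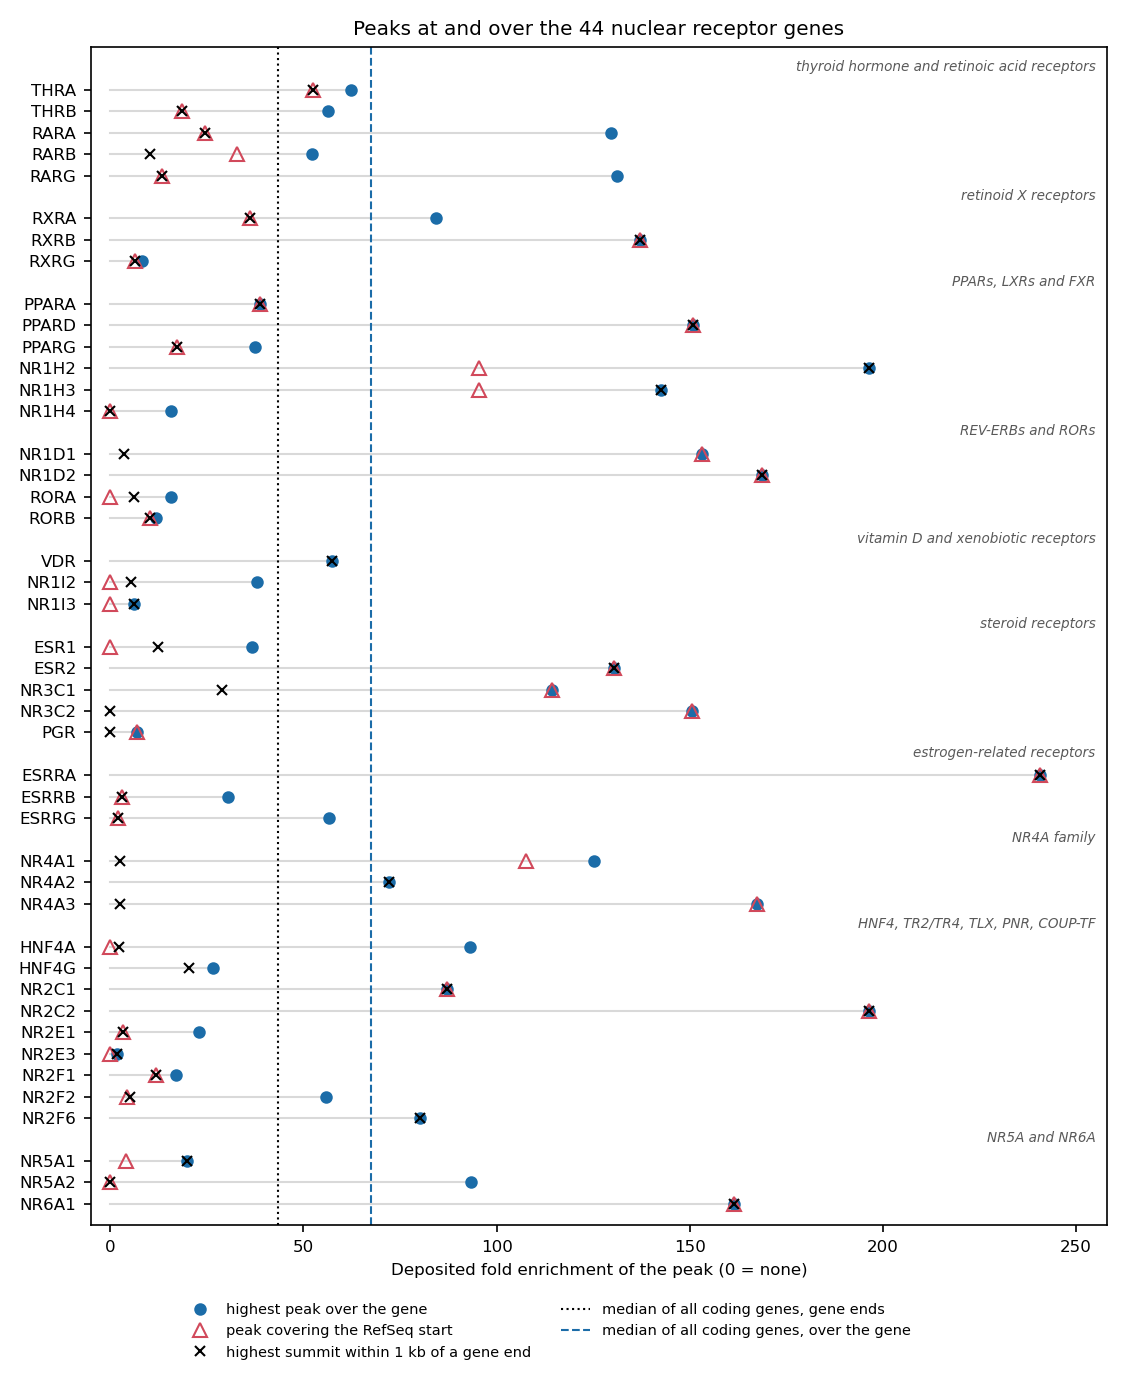
Fold enrichment (linear axis, 0 where there is no peak) for each of the 44 receptor genes by class, with crosses for the highest summit within 1 kb of a gene end, triangles for the peak covering the RefSeq start, circles for the highest peak over the gene, and lines at the all-gene medians of 43.5 (ends) and 67.4 (gene). ESRRA stands highest at 241-fold in all 3, while RARA, RARG, HNF4A and NR5A2 show their highest peak far above the peak at an end.

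A peak covered the RefSeq start in 32 of 40 receptor genes (background 80.3%) and exceeded 50-fold there in 16 (background 52.8%). Each gene was read at a single RefSeq start, and any other start of the same gene was not examined. The peak at the start went with the CpG content before it, in receptors and in all coding genes. CpG content is given as the observed over the expected number of CpG dinucleotides in the 250 bases before the start, where low values mark promoters without a CpG island. All 22 receptors at 0.6 or more had a peak over the start (100%, background 96.9%), with a median of 91.3-fold against 94.1-fold for all such coding genes. Of the 18 receptors under 0.6, 10 had one (55.6%, background 51.4%), with a median of 3.59-fold against 1.94-fold. The Spearman correlation across the 40 receptors was 0.60, against 0.59 across 15812 coding genes, with all points read from the same pooled libraries. NR3C2 at 151-fold, NR4A1 at 108-fold and NR1H3 at 95.5-fold were high despite CpG values of 0.452, 0.226 and 0.120, and RXRG at 6.40-fold and RXRA at 36.2-fold were low beside CpG values of 1.00 and 1.22. The NR1H3 summit is nearest to an end of ACP2. The NR4A1 summit lies 2.86 kb downstream of the start, away from the bases in which CpG was counted.

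**Figure D2:**
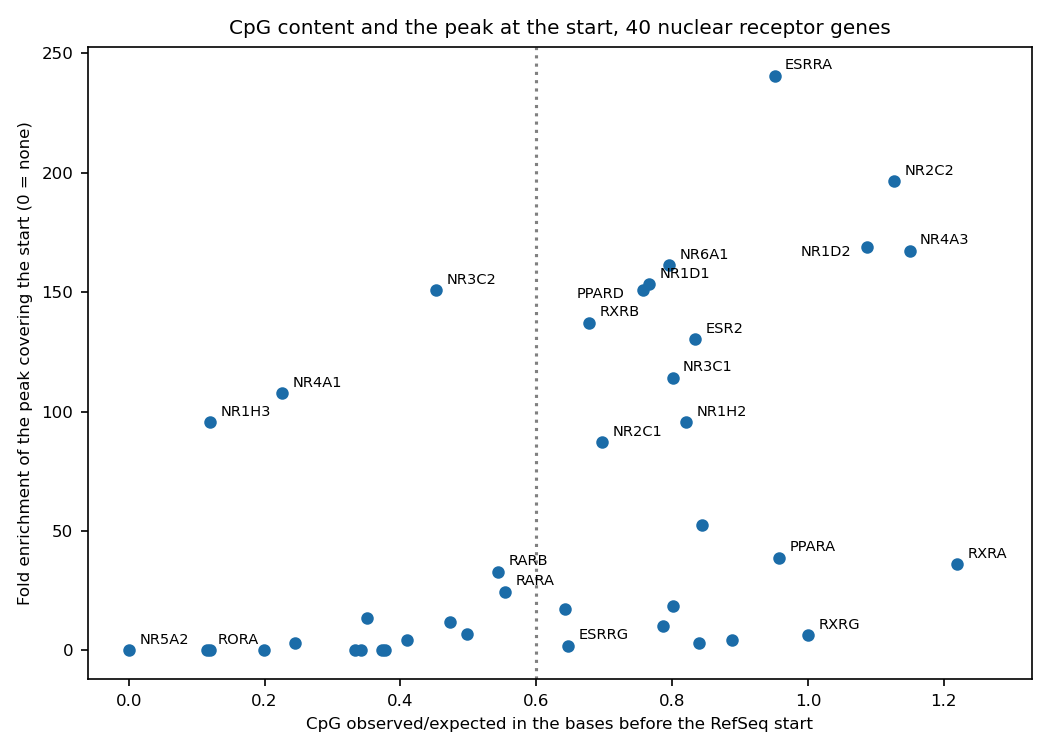
Fold of the peak covering the RefSeq start (0 where none does) against the observed over expected CpG ratio of the 250 bases before it, 1 point for each of 40 receptor genes, with the dotted line at 0.6. All 22 points at or right of the line lie above 0, between 2.03 and 241, and 8 of the 18 left of it lie at 0.

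The sequences before 6 of these starts, chosen to span the range of start peaks from none to 241-fold and to show a named motif, follow as RefSeq gives them on GRCh38.p14, read 5′ to 3′ toward the start. Capitals mark the motif on either strand, and bases are counted from the motif's last base to the start. In ESRRA (chr11:64305274-64305523, plus strand) they mark GGGCGG or its complement, the GC box bound by SP1-type factors, in 8 copies, the nearest 37 bases from the start, with 1 pair of copies overlapping. In NR2C1 (chr12:95073619-95073868, minus strand) they mark CACGTG, the E-box bound by MYC with MAX and by the circadian CLOCK and BMAL1 proteins, 156 bases away. In NR6A1 (chr9:124771312-124771561, minus strand) they mark TGACGTCA, the cyclic AMP response element, 16 bases away. In RARB (chr3:25428013-25428262, plus strand) they mark GTTCA, any 6 bases and GTTCA again, the spaced direct repeat known as the RARB retinoic acid response element, 36 bases away. In RARA (chr17:40308930-40309179, plus strand) they mark AGGTCA, the core element of many receptors, 224 bases away. In NR5A2 (chr1:200027460-200027709, plus strand), with no CpG and no start peak, they mark the letters of TATAAA, here on the opposite strand, 195 bases away.
ESRRA: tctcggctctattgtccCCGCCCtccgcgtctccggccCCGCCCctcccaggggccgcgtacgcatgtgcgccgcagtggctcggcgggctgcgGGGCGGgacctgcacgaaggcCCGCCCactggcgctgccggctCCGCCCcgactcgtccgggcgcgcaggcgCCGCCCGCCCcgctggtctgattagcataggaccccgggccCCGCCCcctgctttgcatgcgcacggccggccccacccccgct
NR2C1: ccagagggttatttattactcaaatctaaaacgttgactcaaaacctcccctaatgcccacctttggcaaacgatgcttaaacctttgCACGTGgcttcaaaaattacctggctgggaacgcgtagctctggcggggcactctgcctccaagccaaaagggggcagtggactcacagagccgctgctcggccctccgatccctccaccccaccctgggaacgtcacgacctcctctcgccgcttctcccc
NR6A1: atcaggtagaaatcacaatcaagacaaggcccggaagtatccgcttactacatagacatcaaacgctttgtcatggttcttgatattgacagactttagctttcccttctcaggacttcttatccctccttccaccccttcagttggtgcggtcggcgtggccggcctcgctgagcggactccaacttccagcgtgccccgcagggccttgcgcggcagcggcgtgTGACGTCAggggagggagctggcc
RARB: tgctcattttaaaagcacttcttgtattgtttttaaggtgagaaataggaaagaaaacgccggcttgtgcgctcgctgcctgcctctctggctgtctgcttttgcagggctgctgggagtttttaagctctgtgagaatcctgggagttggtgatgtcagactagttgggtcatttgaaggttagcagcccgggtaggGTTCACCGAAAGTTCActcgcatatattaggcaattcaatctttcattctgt
RARA: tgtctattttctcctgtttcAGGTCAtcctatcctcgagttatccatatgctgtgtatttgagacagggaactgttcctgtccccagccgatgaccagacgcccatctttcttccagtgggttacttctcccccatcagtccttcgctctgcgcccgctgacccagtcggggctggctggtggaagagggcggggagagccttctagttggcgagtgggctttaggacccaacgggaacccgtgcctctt
NR5A2: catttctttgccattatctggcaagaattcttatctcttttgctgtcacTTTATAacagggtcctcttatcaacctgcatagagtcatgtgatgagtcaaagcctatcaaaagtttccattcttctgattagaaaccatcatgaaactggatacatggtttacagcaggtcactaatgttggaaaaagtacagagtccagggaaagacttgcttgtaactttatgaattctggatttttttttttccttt

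Counted over all starts on both strands, GGGCGG stood before 21 of 40 receptors (background 56.0% of 15812 promoters), AGGTCA before 6 (10.3%), CACGTG before 3 (7.83%), TGACGTCA before 2 (2.32%) and TATAAA, the letters of the TATA box, before 2 (9.25%). The letters of AGAACA, the core of the glucocorticoid response element, stood before 4 (background 9.41%) and those of AGATAA, the site of GATA factors, before 6 (6.84%). Of the 40, RARB alone held GTTCA repeated after 6 bases, which 7 of the 15812 promoters hold (0.0443%). AGGTCA was found before RARA, RXRG, PPARG, NR1H3, NR1H4 and NR5A2, and CACGTG before NR2C1, NR2F2 and NR5A1. A match says that these letters are present, not that a factor binds them.

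The 5 thyroid hormone and retinoic acid receptors all had a peak above 50-fold over the gene (background 58.3%), while the peak at an end was under the all-gene median in 4 of them. Over the gene, RARA and RARG exceeded the all-gene median of 67.4-fold, and THRA, THRB and RARB did not. RARA, which carries the retinoic acid signal in myeloid cells, was open along nearly its whole length, with 95.5% of its 48.5 kb (chr17:40309180-40357643) under peaks. Its start peak was 24.6-fold and 8382 bp wide, and a 13931 bp peak at chr17:40315431-40329361 reached 129.5-fold (127 to 132) at 9.04 kb downstream of the start. A further peak of 16173 bp at chr17:40340500-40356672 reached 109-fold with its summit 32.2 kb downstream. RARG, a retinoic acid receptor tied to stem cell maintenance, showed the same form on a smaller scale: 13.5-fold at the start (chr12:53230937-53233469) and 131-fold (129 to 134) in a 9142 bp peak at chr12:53213044-53222185, 11.1 kb downstream. For RARG 72.8% of the gene was covered.

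RARB, itself a retinoic acid target, had 75 body peaks in 768.6 kb, a density of 9.78 per 100 kb. Its RefSeq start, which follows the sequence printed above, lies 598.9 kb inside the gene and carried a 32.9-fold peak, while the outer end carried 10.4-fold. Its highest peak, 52.1-fold (50.7 to 53.6), lay 32.7 kb downstream of that start. THRA, the main thyroid hormone receptor of many tissues, had 52.5-fold at the start and 62.2-fold 12.6 kb downstream, the latter at chr17:40074697-40076350, with 45.8% of the gene covered. THRB, its partner gene on chromosome 3, had 18.5-fold at the start and 56.3-fold as far as 309.7 kb downstream, with 5.29% covered.

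The retinoid X receptors, the common partners of the class, differed widely among themselves. RXRB had 137-fold (135 to 140) over its start at chr6:33199659-33201745, where an end of SLC39A7 also lies within 1 kb of the summit, so the peak may belong to either gene. RXRA had 36.2-fold at its start but 84.3-fold (82.4 to 86.1) inside, 81.0 kb downstream at chr9:134403309-134408050. With 39 body peaks at 34.8 per 100 kb and 52.7% of its 114.1 kb covered, RXRA was dense throughout. RXRG had at most 8.35-fold over the gene and 4.70% covered, while a distal peak of 97.5-fold stood 7.76 kb beyond its lower-coordinate end.

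Among receptors for fatty acids, oxysterols and bile acids, PPARD, NR1H2 and NR1H3 passed 50-fold and PPARA, PPARG and NR1H4 did not. PPARD, the broadly expressed fatty acid receptor, had 151-fold (148 to 153) at its start (chr6:35341793-35344502), and internal peaks of 110-fold and 95.5-fold stood 27.9 and 20.9 kb downstream. PPARA, which drives fatty acid oxidation, had its highest peak of 38.8-fold at the start. PPARG, the adipocyte regulator, had 17.3-fold at the start and 37.4-fold 118.5 kb downstream, among 38 body peaks at 26.2 per 100 kb. NR1H2 and NR1H3 encode the oxysterol receptors LXR beta and LXR alpha, and their start peaks were alike at 95.4-fold (93.5 to 97.4) and 95.5-fold (93.5 to 97.5). The higher peak at the other end of each, 197-fold and 143-fold, lay within 1 kb of an end of POLD1 and of MADD respectively, and an end of ACP2 lay beside the NR1H3 start peak. NR1H3 also had a 54.7-fold peak 9.68 kb inside. NR1H4, the bile acid receptor FXR of liver and gut, had no peak at an end or start and at most 15.7-fold.

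The circadian repressors had high peaks at their starts, and the activators that oppose them had low peaks or none. NR1D1, encoding REV-ERB alpha, had a 153-fold (151 to 156) peak of 3754 bp over its start, chr17:40097931-40101684, with the summit 1.37 kb downstream and so outside the 1 kb end window. That window held no summit, and the 3.53-fold counted for NR1D1 at an end lies at its opposite end, where it overlaps THRA. NR1D2, encoding REV-ERB beta, had 169-fold (166 to 171) at chr3:23943657-23946826. That summit lies within 1 kb of an end of NKIRAS1 and nearest to it, so the peak may belong to either gene. The next peak over NR1D2 was 2.43-fold. RORA and RORB, which activate the same clock genes, had at most 15.8-fold and 11.9-fold over 741.0 and 195.8 kb, with 2.63% and 3.23% covered. RORA had no peak over its RefSeq start, which lies 601.8 kb inside the gene.

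VDR, the vitamin D receptor, had 57.5-fold (55.9 to 59.0) at its higher-coordinate end, chr12:47902814-47905871, and 25 body peaks at 40.7 per 100 kb. The xenobiotic receptors of liver, NR1I2 (PXR) and NR1I3 (CAR), had no peak over their starts. NR1I2 nonetheless reached 37.9-fold 28.1 kb downstream of its start, whereas NR1I3 reached 6.08-fold.

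The 5 steroid receptor genes are all over 100 kb long, and a median of 3.66% of their length lay under peaks, against 6.77% over all coding genes of that length class. The 2 corticosteroid receptors were nevertheless high at their starts. NR3C1, the glucocorticoid receptor, had 114-fold (112 to 116) over the RefSeq start at chr5:143402005-143406063, 31.0 kb inside the gene, where an end of LOC128966704 also lies within 1 kb, and 28.9-fold at its outer end. NR3C2, the mineralocorticoid receptor, had 151-fold (148 to 153) over its start at chr4:148441732-148446103, 2.91 kb inside the gene, so that no summit counted at an end. ESR2, estrogen receptor beta, had 130.4-fold (128 to 133) at its start and 5 body peaks at 4.55 per 100 kb. ESR1, estrogen receptor alpha, had none at its RefSeq start, 12.4-fold at its other end and 36.6-fold 438.7 kb downstream. PGR, the progesterone receptor, had 6.96-fold at its start and nothing higher.

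ESRRA, an orphan receptor that drives mitochondrial gene expression, had the highest peak of all 44 at 241-fold (238 to 244), over the GC-rich start printed above (chr11:64304001-64307696). An end of CATSPERZ lies within 1 kb of that summit. The next in order were NR1H2 at 197-fold (194 to 199) and NR2C2 at 196-fold (194 to 199), whose intervals overlap. The NR1H2 summit is nearer to an end of POLD1, and among summits nearest to the gene itself NR1H2 had 95.4-fold. ESRRB, known from pluripotent cells, had 3.06-fold at the start and 30.5-fold 76.5 kb downstream, and ESRRG had 2.03-fold at the start and 56.5-fold 536.5 kb downstream, in genes of 191.1 and 634.5 kb.

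All 3 genes of the NR4A family, ligand-independent receptors induced within minutes by many stimuli, had a peak above 50-fold over the gene (background 58.3%). NR4A1 had 108-fold (106 to 110) in a peak that covered its start with the summit 2.86 kb downstream. It also had 125-fold (123 to 127) 10.3 kb downstream at chr12:52032403-52033884 and 69.6-fold at 28.4 kb, and 41.5% of the gene was covered. NR4A3 had 167-fold (165 to 170) in a 7699 bp peak, chr9:99818418-99826116, that covered its start with the summit 1.79 kb upstream. NR4A2 had 72.2-fold (70.5 to 74.0) at its higher-coordinate end and 116-fold at chr2:156340391-156343749, 9.12 kb beyond that end. For NR4A1 and NR4A3 no summit lay within 1 kb of the start, and the 2.44-fold and 2.63-fold counted at an end lie at the opposite, higher-coordinate end.

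Within the NR2 group the testicular receptors were high at their starts. NR2C2 had 196-fold at its start (chr3:14946684-14949320) and NR2C1 87.2-fold (85.3 to 89.1) at chr12:95072241-95074129, over the E-box sequence printed above. These orphan receptors bind the direct repeats of the embryonic globin promoters as repressors. NR2C1 had 1 body peak of 2.03-fold in 53.4 kb. NR2F6, a lymphoid repressor, had 80.2-fold (78.4 to 82.0) at its higher-coordinate end. HNF4A, the hepatocyte factor, had no peak at its RefSeq start, yet reached 93.2-fold (91.2 to 95.1) in a 4510 bp peak 39.2 kb downstream at chr20:44392868-44397377. HNF4G reached 26.6-fold. NR2F1 and NR2F2, the COUP-TF factors of mesoderm, vein and nervous system, had 11.9-fold and 4.24-fold at the start and 17.0-fold and 55.9-fold over the gene. NR2E1 (TLX) of neural stem cells reached 23.1-fold, and NR2E3 of photoreceptors had 1 peak over the gene, of 1.86-fold, the lowest maximum of the 44.

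NR6A1, the germ cell nuclear factor that represses pluripotency genes as embryonic stem cells differentiate, had 161-fold (159 to 164) over its start at chr9:124769041-124772609, which includes the sequence printed above. NR6A1 also held 61 body peaks, at 24.2 per 100 kb. NR5A1, the steroidogenic factor of adrenal and gonad, lies 9.88 kb from it and had 4.13-fold at its start and 19.9-fold at its lower-coordinate end. NR5A1 was nonetheless dense, with 14 body peaks at 57.9 per 100 kb. NR5A2, a liver and embryonic receptor, had no start peak beside the sequence printed above, and its highest peak, 93.3-fold (91.4 to 95.3), lay 126.6 kb downstream at chr1:200152852-200155048.

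The 1 kb limit was met closely in several genes. NR2C2 with its summit 0.823 kb from the start counted as having a peak at an end. NR1H4, PGR, NR5A2 and NR3C2, with their nearest summits 1291, 1342, 1603 and 2276 bp from an end, did not. Of these 4 nearest summits, the one at NR5A2 was 12.5-fold and the others were under 5-fold.

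Thyroid, retinoid and circadian receptor genes sit together on chromosomes 17 and 3. On chromosome 17 THRA and NR1D1 overlap by 1075 bp at their ends, and RARA follows 208.6 kb beyond NR1D1. On chromosome 3 the paralogs NR1D2, THRB and RARB follow in that order, with gaps of 136.5 and 333.6 kb. Each REV-ERB gene had the highest peak among the 3 receptors of its cluster, 153-fold and 169-fold, though the 169-fold summit at NR1D2 is nearest to an end of NKIRAS1. RARA had 95.5% of its length under peaks and RARB 5.49%, and THRA had 45.8% and THRB 5.29%. The chromosome 3 genes are longer, at 378.6 kb for THRB and 768.6 kb for RARB against 31.7 and 48.5 kb. By density the gap was smaller, at 20.2 against 8.23 body peaks per 100 kb for THRA and THRB, and 12.9 against 9.78 for RARA and RARB, where wide peaks in RARA count once each.

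**Figure D3:**
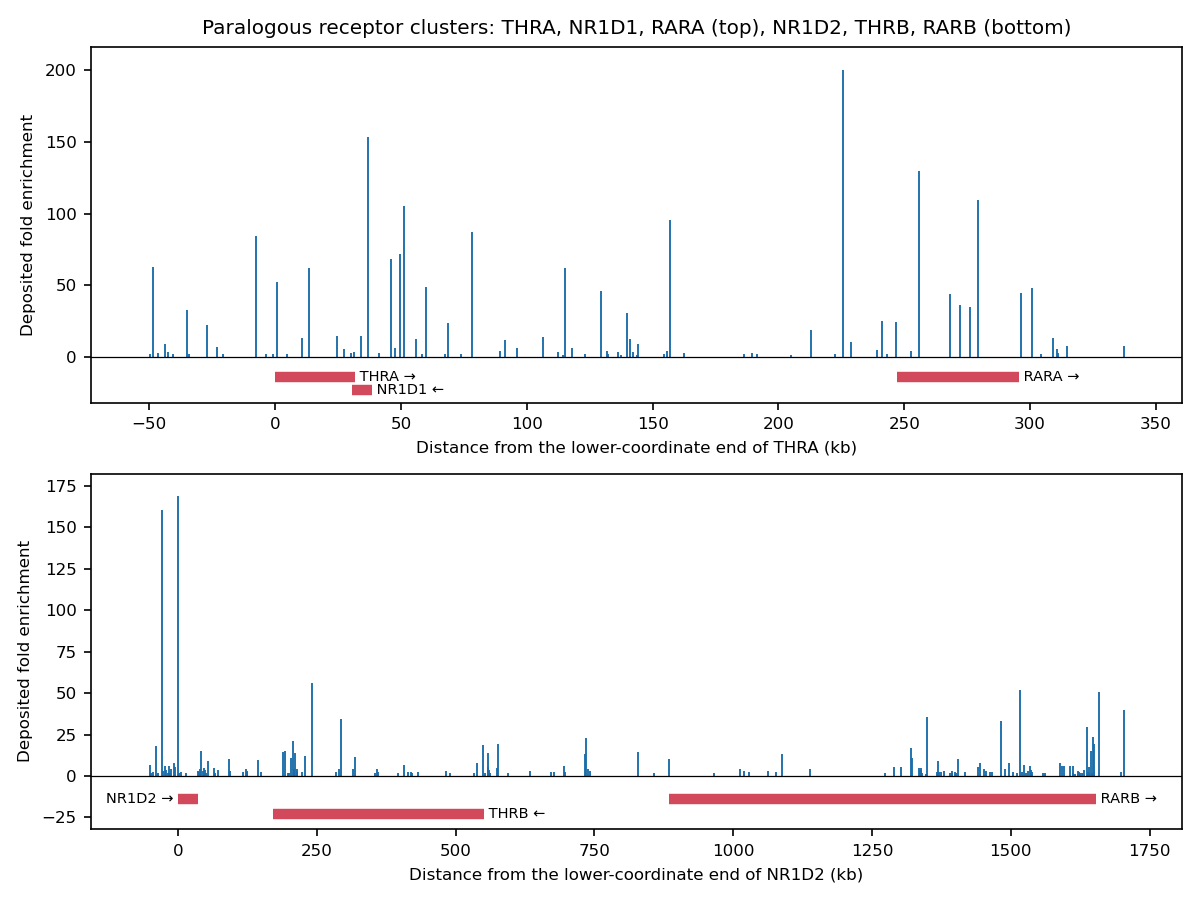
Fold of every peak by distance (kb, on scales that differ between the panels) along the chromosome 17 cluster of THRA, NR1D1 and RARA and the chromosome 3 cluster of NR1D2, THRB and RARB, with 1 line per peak and the genes as bars with arrows for their direction. The 129.5-fold and 109-fold peaks inside RARA stand above the peaks in RARB, of which the highest is 52.1-fold, and other high peaks lie outside the receptor genes.

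Distal peaks, over 1 kb from every coding gene end and within 50 kb of the receptor, were counted per 100 kb. The median density was 14.3 for receptors and 14.3 for all coding genes, with 19 of 44 receptors above the all-gene median (43.2%, background 47.6%) and 11 above the upper quartile (25.0%, background 22.7%). The densest surroundings were those of NR6A1 at 38.8 per 100 kb, then VDR at 27.6, ESRRA at 26.5 and NR5A1 at 25.5. NR1D2, NR2C2 and RARG followed at 24.5 each, NR1I3 and PPARG at 23.5, and RXRA and PPARD at 21.4. PGR and RARB were at the other end with 3.06 each. NR5A1 and NR6A1 share part of this region, and receptors that overlap or adjoin shared 51 peaks in all.

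Inside the genes, 15 of 44 receptors had a body peak density above the all-gene upper quartile (34.1%, background 25.0%). The median was 15.5 per 100 kb against 13.1, but the difference varied with gene length. Under 30 kb the receptor median was 30.58 against 14.02 over all coding genes. From 30 to 100 kb it was 14.25 against 13.88, and over 100 kb it was lower, at 8.23 against 11.12. More than 40% of the gene lay under peaks in 12 of 44 (27.3%, background 16.7%). By the same length classes the median share under peaks was 41.67%, 18.74% and 5.29%, against 19.63%, 10.13% and 6.77%. NR4A2 at 63.6, NR5A1 at 57.9 and ESRRA at 54.2 body peaks per 100 kb were the densest, while NR1H2 and NR2E3 had none. These densities rest on 4, 14 and 5 peaks of at most 6.47-fold, 14.2-fold and 4.91-fold respectively. Density inside and around the gene ran together with a Spearman correlation of 0.52 across 44 receptors, against 0.41 across 18725 coding genes. These points share the same libraries, and neighbouring receptors share peaks.

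**Figure D4:**
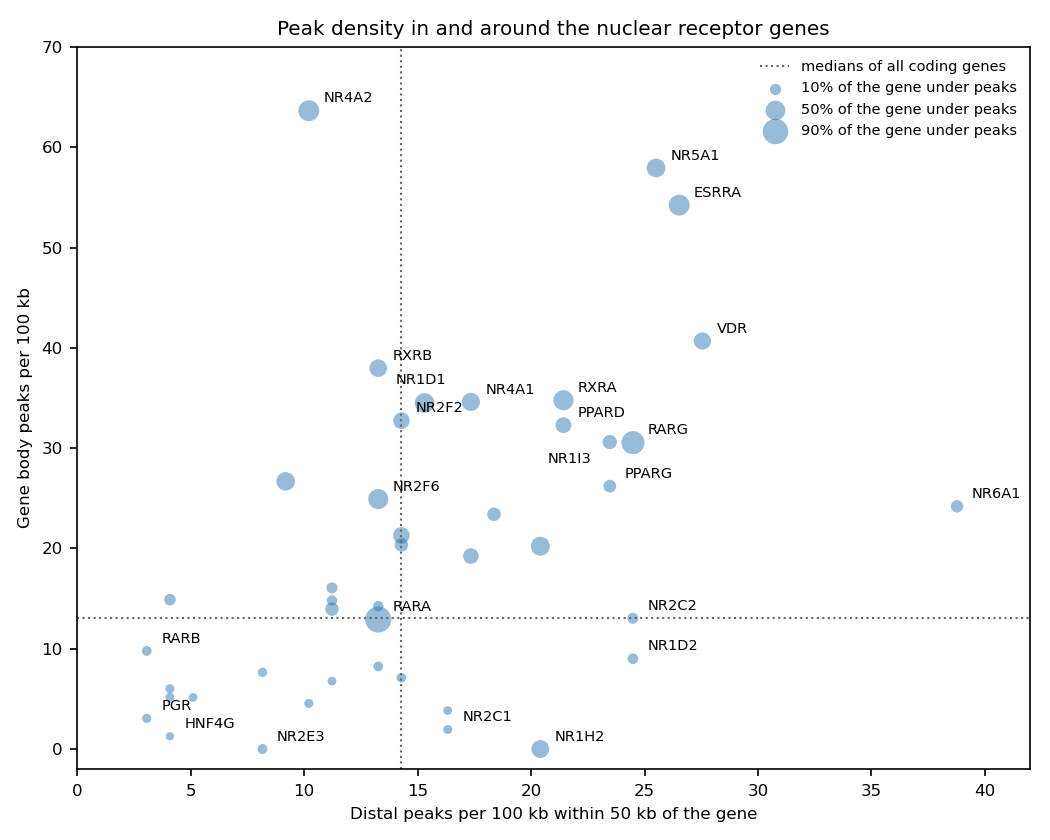
Body peaks per 100 kb (vertical) against distal peaks per 100 kb within 50 kb (horizontal) for the 44 receptor genes, with point area set by the percent of the gene under peaks and dotted lines at the all-gene medians of 13.1 and 14.3. NR6A1 lies farthest right at 38.8 and NR4A2 highest at 63.6, and RARA, the largest point at 95.5%, lies near both medians.

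The highest distal peaks of several receptors lay inside another gene. NR4A1 had 151-fold inside ATG101. In the NR4A class the highest was the start peak of NR4A3 itself at 167-fold, counted as distal because its summit lies 1.79 kb outside the gene. The 153-fold peak counted for THRA is the start peak of NR1D1. NR1D1 had 105-fold at 12.8 kb upstream, chr17:40112829-40113961, RXRG had 97.5-fold, ESRRA 95.0-fold at 26.4 kb downstream, and NR3C2 72.0-fold inside ARHGAP10. NR2C2 had 53.4-fold inside FGD5, and NR5A1 and NR6A1 shared a 42.8-fold peak in the interval between them.

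Other genes of receptor signalling were read in the same way. Of 20 coregulators, the coactivators and corepressors that receptors recruit, 16 exceeded the all-gene median at an end (background 50.0%), with a median of 86.0-fold. CARM1 at 296-fold and PRMT1 at 263-fold, arginine methyltransferases, and KDM1A at 163-fold, a histone demethylase, were highest. NCOA2 and EP300 had no summit at an end, though a 193-fold peak covered the EP300 start. The highest peak over NCOA2, which had no start to read, was 206-fold. Of 15 genes that make, carry, degrade or answer retinoic acid, 1 exceeded that median, and the list median was 5.86-fold. That gene was RDH10, a retinol dehydrogenase, at 164-fold. ALDH1A2, which makes retinoic acid, had 37.0-fold and RARRES1 30.5-fold, and the list's highest peaks over whole genes had a median of 26.5-fold.

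Of 10 glucocorticoid targets, 5 exceeded the all-gene median at an end, with a list median of 51.3-fold. With a 0.5 kb window that median was 11.0-fold (27.9 over all coding genes), and at the RefSeq start alone, for 9 of them, 34.7-fold (49.8). FKBP5, a chaperone that restrains the glucocorticoid receptor, had 148-fold, NFKBIA 124-fold and KLF9 121-fold. DUSP1 had no summit at an end but 131-fold over its start. Of 16 sterol and fatty acid targets, 7 exceeded it, with a median of 17.3-fold. That median was 83.6-fold (49.8 over all coding genes) for the 10 of them read at the RefSeq start alone, and 65.4-fold (56.1) when any peak overlapping the end windows counted. LPCAT3 and SCD, targets of the oxysterol receptors in lipid remodelling, had 212-fold and 152-fold. CD36, FABP4 and CYP7A1 had no summit at an end. Of 12 circadian partners and vitamin D targets, 6 exceeded it, with a median of 36.1-fold, or 93.3-fold (49.8) for the 11 read at the RefSeq start alone. The clock repressor CRY2 had 208-fold, DBP 178-fold and BMAL1 152-fold. PER2 and NPAS2 had no summit at an end, though peaks of 229-fold and 7.52-fold covered their starts.

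**Figure D5:**
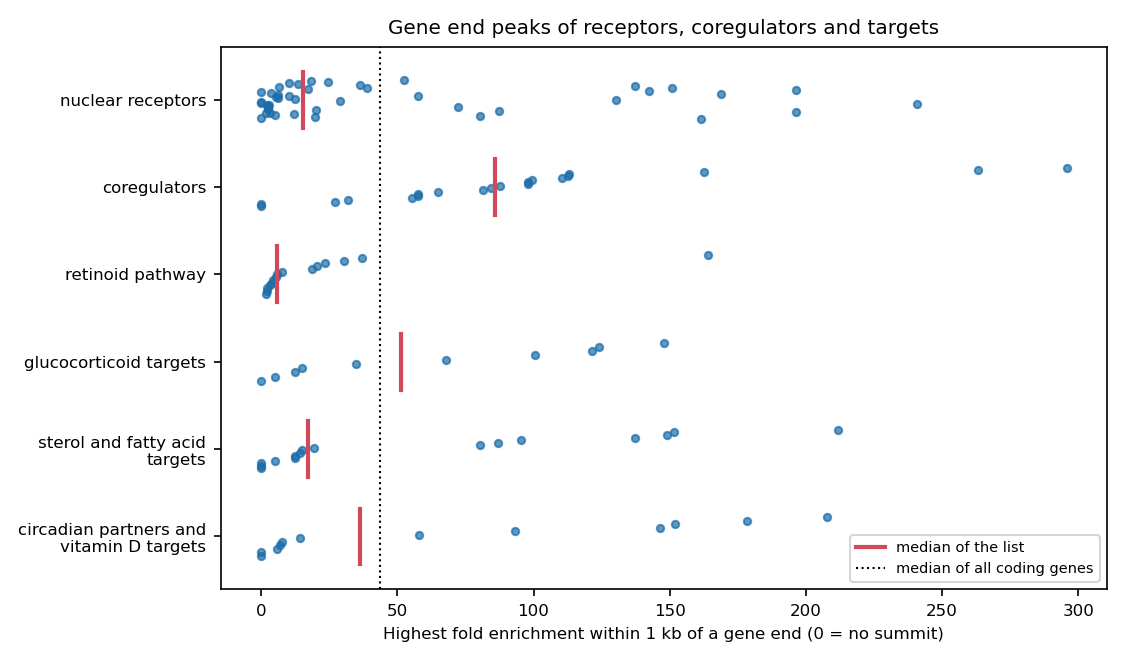
Highest fold at a gene end (0 where none) for each gene of the 5 receptor signalling lists and the 44 receptors, 1 point per gene with no meaning in its vertical offset, a bar at each list's median and a dotted line at the all-gene median of 43.5. The coregulators lie mostly right of the line, with a median of 86.0, and 1 of 15 retinoid pathway genes does.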

How the data were processed

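Per the labels' protocols, each library used 50000 nuclei, a transposase reaction of 45 minutes and 75-nucleotide paired-end sequencing. Picard 2.2.4, Bowtie2 2.2.8, Trim Galore 0.6.5 with GRCh38.p13 and hg38 as builds are listed, without role or order, per the submitters' processing notes, and MACS 2.1.0 and GENCODE 36 are named per the file's peak names. Read filters, any transposase shift and the libraries pooled are not given in the sources used here, nor is the depth per library. The deposited list gives positions, a score (not used), a linear fold ratio to background at each summit, and −log10 p and q values. The deposited −log10 p was used only to keep the more significant 50% of peaks in an alternative run and to fit the background of the peak caller.

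The authors' fold and p are matched by 1 background of 93.5 reads, with fold equal to (pileup + 1) / (background + 1). It was fitted and checked on the same 198788 peaks, those of lower −log10 p, and 100% of their pileups came out whole within 0.15. More significant peaks, among them every peak given a Poisson interval above, were outside this check. The pileups gave the Poisson intervals, with the same background taken to hold for all peaks. A single background does not correct for copy number or mappability.

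Gene ends and promoter sequences came from RefSeq tables of GRCh38.p14, and 40 of 44 receptors matched a promoter entry, while VDR, HNF4G, NR2F6 and NR4A2 did not. Exons, introns and UTRs were not used here. Distal peaks may lie inside neighbouring genes. Python 3.11.15, numpy 2.4.6, pandas 2.3.3, scipy 1.17.1 and matplotlib 3.10.9 were used, and the assignment of peaks to genes was tested on simulated data. The members, lists, motifs and thresholds were chosen with earlier results of these data known. Every receptor is named. In each pathway list the 3 genes highest at an end and up to 3 without a summit are named, and for distal peaks the 10 densest receptors (11 with ties) and the highest peak in each class; a few results that meet these rules are not reported here. The peak over the RefSeq start and the highest peak over the gene were added as measures after the data were seen.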

Additional observations from a re-analysis of the deposited data

How the results depend on the processing

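The low values at gene ends depended on where a gene was read. With the highest peak over the gene in place of the ends, an alternative chosen after seeing the data, the median over receptors was 67.2-fold (67.4 over all coding genes) and 22 of 44 exceeded the all-gene median, against 15.4-fold and 14 of 44. With the more significant 50% of peaks, the median body density was 8.22 per 100 kb (5.14 over all coding genes) and the median distal density 7.14 (7.14), since fewer peaks were counted. Under the other alternatives (end windows of 0.5 or 2.5 kb, peaks overlapping by 1 bp in place of summits, the RefSeq start alone, the gene's own nearest summits, bodies trimmed by 2.5 kb, flanks of 20 or 100 kb, other gene ends kept), the receptor medians stayed within the 95% binomial interval of the main median over genes, and the counts within 1.5 times, as did the 15 receptors with a body peak above 50-fold that does not cover the start, against 18. For the median at an end that interval is wide (6.21 to 36.2), so staying within it says little. The receptors above the all-gene median at an end rose from 14 to 19 of 44 with overlapping peaks and to 17 with the gene's own nearest summits. They were 13 of 40 at the RefSeq start alone, and 14 and 15 of 44 with windows of 0.5 and 2.5 kb. For the pathway lists such intervals are also wide (5.27 to 124 for the glucocorticoid targets) and show no stability. The medians of the glucocorticoid, sterol and circadian lists changed sides of the all-gene median at the RefSeq start alone, and the glucocorticoid list also with 0.5 kb, the sterol list with overlapping peaks and the circadian list with the gene's own nearest summits (36.1 against 23.7). The coregulator median stayed above it and the retinoid median below it in each setting run. The median at ends ran from 6.31-fold with 0.5 kb to 33.3-fold with any overlap. For single receptors the 0.5 kb window moved the value at an end in 13 of 44 and the 2.5 kb window in 14. No paired analysis was possible because the list holds no value per library, and for that reason leaving out each replicate was not run either. A pooled list cannot show which libraries a peak came from, and how many low peaks it holds varies with the total reads pooled.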
